A study of Bos taurus with 81 samples.

Results

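The inner cell mass (ICM) and the trophectoderm (TE) of the bovine blastocyst were compared for histone H3 trimethylated at lysine 9 (H3K9me3) on autosomes 1 to 29. The comparison rests on 4 of the 81 libraries of the series, namely the peak lists of 2 ICM and 2 TE libraries, and all 4 were used. They hold 51180 peaks on the autosomes, out of 67049 on all sequences of the assembly ARS-UCD1.2. Each autosome was divided into bins of 5 kb, and a bin counted as marked in a list when peaks covered at least 50% of it. Bins marked in all 4 lists are called shared, bins marked in both ICM lists and neither TE list ICM-only, and bins marked in both TE lists and neither ICM list TE-only.

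The series profiled H3K4me3, H3K27ac, H3K27me3 and H3K9me3 by CUT&Tag, in which an antibody directs a transposase to the mark, and open chromatin by ATAC-seq, in bovine oocytes and embryos produced in vitro. Oocytes came from slaughterhouse ovaries and were fertilised with frozen semen, and the libraries used here had no inhibitor treatment. ICM was obtained by immunosurgery of blastocysts, in which an antibody and complement destroy the outer cells, and TE was cut off with a micro scalpel. The stages set beside them were the immature oocyte (GV), the embryos of 2, 4 and 8 cells (2C, 4C and 8C, the last at 56 h after insemination), the morula (MO, 122 h) and the whole blastocyst (BL, 172 h), each with 2 libraries per mark. Each library was a pool of cells. The labels do not say whether the replicates came from separate cultures, so p-values measure only the spread between these libraries. The purity of the 2 fractions was not analysed here, since the peak lists name no genes, and a difference in mark per cell and a difference in the share of cells that carry it cannot be told apart.

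H3K9me3 is the hallmark of constitutive heterochromatin. It is deposited by enzymes such as SUV39H1 and SETDB1, is bound by HP1 proteins, and silences repeats and transposable elements as well as genes of other lineages. H3K27me3 is deposited by Polycomb repressive complex 2 and marks facultative heterochromatin over developmental genes. The ICM gives rise to the fetus, and the TE to the fetal part of the placenta.

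H3K9me3 covered less of the autosomes in ICM than in TE, and one ICM list was shorter than the other. The lists held 7654 and 15249 peaks in ICM replicates 1 and 2, and 13355 and 14922 in TE replicates 1 and 2. The peaks covered 96.6 and 127.6 Mb in ICM and 153.3 and 154.2 Mb in TE, or 3.88% and 5.13% against 6.16% and 6.20% of the autosomes. Both ICM values lay below both TE values. The means were 112 ± 21.9 Mb (SD, n = 2) and 154 ± 0.675 Mb (SD, n = 2), a log2 difference of -0.47. The exact permutation test (two-sided) gave p = 0.333, the smallest that 2 libraries against 2 allow. The read depth behind the lists is unknown. The lowest peak scores, taken as the first percentile per 200 bp, were 1.55 and 2.24 in ICM and 2.3 and 2.12 in TE, so ICM replicate 1 stood apart by its floor as well as by its length, and the part of depth in the difference was not tested. On the X chromosome the order was not the same, with 6.38% and 8.68% covered in ICM and 6.30% and 6.40% in TE.

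No difference in the length of single domains was detectable with 2 lists per lineage. The median peak width was 10.0 and 6.4 kb in ICM and 8.0 and 7.2 kb in TE, so the ICM values enclosed the TE values. Peaks of at least 20 kb held 34.3% and 21.7% of the covered length in ICM and 37.1% and 33.2% in TE, which also overlapped. The log2 difference of median width was 0.08 (exact permutation test, two-sided, p = 1), and it changed sign when ICM replicate 1 was left out (-0.25).

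The lists of 1 lineage overlapped each other more than those of the other lineage. The shared length divided by the length covered by either list was 0.528 between the ICM lists and 0.655 between the TE lists. The 4 pairs of an ICM and a TE list lay between 0.319 and 0.371, below both values. Of the length of ICM replicate 1, 80.2% lay in ICM replicate 2, and of ICM replicate 2, 60.7% lay in replicate 1. Between 59.0% and 63.7% of an ICM list lay in a TE list, and between 39.3% and 49.6% of a TE list lay in an ICM list.

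Of 497620 autosomal bins, 48656 were marked in at least 1 of the 4 lists. The shared class held 10494 bins (2.11% of all bins), the ICM-only class 4206 (0.845%) and the TE-only class 9867 (1.98%). ICM-only bins thus made up 29.9% of the bins particular to 1 lineage by these lists. The remaining 24089 marked bins (49.5%) had other patterns, of which 3985 were marked in ICM replicate 2 and both TE lists but not in ICM replicate 1. Bins with that pattern are lost to the shared class through 1 library, while only 1302 were lost the same way through ICM replicate 2. Without ICM replicate 1 the ICM-only class grew to 8871 bins and the ICM-only share to 44.3%. When all lists were trimmed by peak score to the covered length of the shortest, the TE-only class shrank to 4793 bins. The ICM-only class grew to 5300 bins, and the ICM-only share reached 52.5%. Trimming by score per base gave 5261 TE-only bins, 5086 ICM-only bins and 49.2%, so the excess of TE-only bins did not hold at equal list length. Trimming by score kept all 7654 peaks of ICM replicate 1, with its lower score floor, and left 4577 and 5095 peaks in TE. A bin can thus become ICM-only because its TE peak was removed, and the part of this in the share was not tested.

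**Figure D1:**
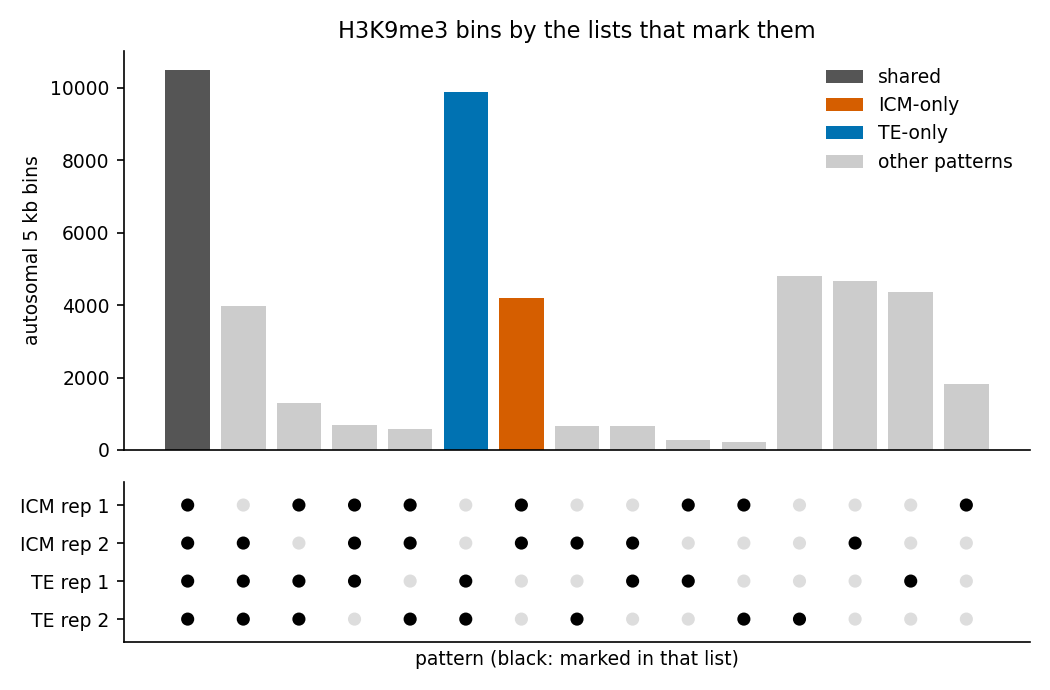
Number of autosomal 5 kb bins (vertical axis) for each pattern of marked lists, with black dots below naming the lists that mark the bin. The shared bar (10494) and the TE-only bar (9867) stand above the ICM-only bar (4206), and 3985 bins lack only ICM replicate 1.

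The class rule fixes high coverage in the defining lists and low coverage in the others, and the coverage within it is given as a description. In ICM-only bins the ICM lists covered on average 86.0% of the bin and the TE lists 3.16%, and 85.4% of these bins had no covered base in either TE list. In TE-only bins the TE lists covered 86.9% and the ICM lists 2.92%, and 82.6% had no covered base in either ICM list. Mean coverage in the defining lists was under 60% in 4.35% of ICM-only and 3.63% of TE-only bins.

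In these lists, shared H3K9me3 formed long blocks, TE-only H3K9me3 shorter ones and ICM-only H3K9me3 the shortest. The part of list length and class size in this order was not tested. The ICM-only bins fell into 2887 runs of neighbouring bins, of which 68.0% were single bins, and the longest run was 40 kb. TE-only bins formed 5570 runs with 58.7% single bins and a longest run of 115 kb, and shared bins 3597 runs with 40.6% single bins and a longest run of 245 kb. Runs of at least 4 bins held 9.25% of ICM-only, 25.1% of TE-only and 56.2% of shared bins. TE-only runs lay within 50 kb of a shared bin in 50.1% of cases, and ICM-only runs in 22.6%. No such share was taken for all autosomal bins, and the part of run length and chromosome position in this difference was not tested.

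Counted on the 200 bp grid of the lists without bins, the stretches covered by both ICM lists and no TE list numbered 5203 and spanned 21.0 Mb. Their median length was 3.4 kb, and 22 reached 20 kb. Stretches covered by both TE lists and no ICM list numbered 10610, spanned 46.2 Mb, had a median of 3.6 kb and reached 20 kb in 95 cases. The shared stretches numbered 5973, spanned 49.5 Mb and had a median of 6.2 kb, with 392 of at least 20 kb. The medians of the ICM and TE stretches were close, and the difference lay in their number and in the longest ones.

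The longest ICM stretch lay at chr1:131260201-131290200 and was 30.0 kb long. H3K27ac, a mark of active enhancers and promoters, covered 14.5% and 15.3% of it in the ICM libraries and 0% in both TE libraries, and H3K27me3 covered none of it in ICM or TE. H3K9me3 covered none of it from GV to 8C, 31.3% and 53.3% in MO, and 42.0% and 61.3% in BL. The next, at chr6:78878401-78907600 (29.2 kb), carried no H3K27ac in ICM or TE, and H3K9me3 covered 90.4% and 88.4% of it in MO. These 2 stretches differ in what the oocyte carried, since GV H3K9me3 covered 51.4% and 45.2% of the second and none of the first.

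The longest shared stretch, 146.4 kb at chr16:75189601-75336000, lay under H3K27me3 over 100% of its length in both ICM libraries and over 98.9% and 99.7% in TE. GV oocytes had no H3K9me3 peak there, whereas H3K27me3 already covered 58.3% and 51.9% of it. H3K9me3 covered 35.2% and 33.7% at 2C and 79.5% and 81.7% at 4C. After the 59.0 kb stretch at chr19:8346001-8405000, the longest TE stretch was 39.4 kb at chr16:49628601-49668000. On the chromosome 16 stretch H3K27me3 was present in both lineages, with 90.4% and 79.2% covered in ICM and 100% and 97.0% in TE. On the chromosome 19 stretch it was present in TE (84.4% and 81.4%) and at 0% in both ICM libraries.

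Shared and TE-only bins gathered at the distal ends of the autosomes, and ICM-only bins much less so. Bovine autosomes are acrocentric, with the centromere at the start of the sequence, so the far end is the telomere of the long arm. The last 5 Mb, measured back from the highest peak end, held 5.83% of all bins, 51.8% of shared, 28.6% of TE-only and 7.09% of ICM-only bins. In that zone 18.7% of bins were shared, 9.71% TE-only and 1.03% ICM-only. The first 5 Mb held 5.83% of all bins, 7.14% of shared, 9.73% of TE-only and 5.06% of ICM-only bins. Beyond 20 Mb from both ends the order of the lineages turned, with 2225 ICM-only bins (0.838% of bins) against 1726 TE-only bins (0.65%) and 833 shared bins (0.314%). In steps of 1 Mb within 20 Mb of either end, ICM-only bins made up 0.379% to 1.53% of bins, highest between 6 and 7 Mb from the distal end, while the other classes reached 28.8% and 11.9%. These are positions of bins that the 4 lists themselves define, and they were not tested.

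**Figure D2:**
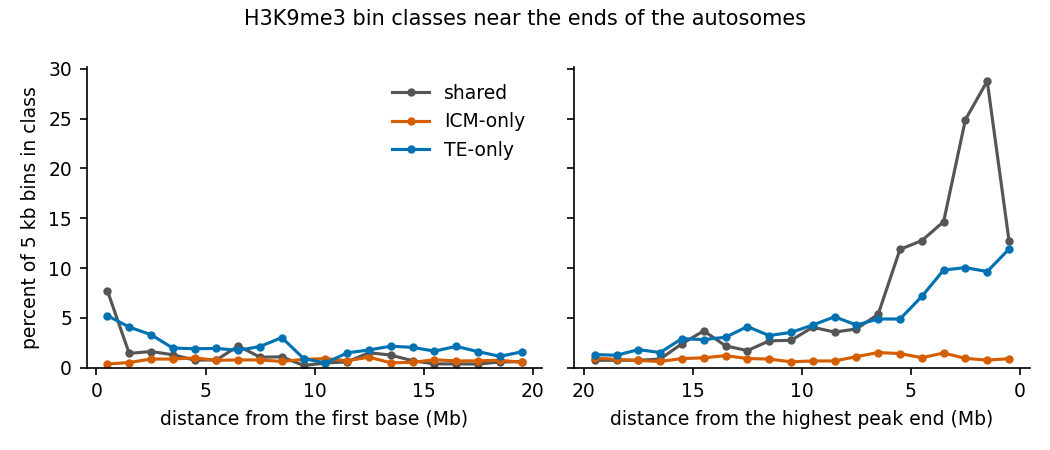
Percent of 5 kb bins in each class (vertical axis) in steps of 1 Mb from the first base (left) and from the highest peak end (right), pooled over 29 autosomes. The ICM-only line stays between 0.379% and 1.53% throughout, while shared bins reach 28.8% between 1 and 2 Mb from the distal end and TE-only bins 11.9% in the last Mb.

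The balance of the lineages followed autosome size. Both TE lists covered more than both ICM lists on 20 autosomes (69.0%), and both ICM lists covered more than both TE lists on 3 (10.3%). Autosome 1 had 418 ICM-only and 236 TE-only bins, an ICM-only share of 63.9%. Its length was covered by 3.79% and 4.90% in ICM and 3.59% and 3.66% in TE, so the lineages did not overlap there and ICM was higher. Autosomes 6 and 10 followed with ICM-only shares of 62.6% and 59.6%.

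Autosome 19 lay at the other end, with 30 ICM-only and 808 TE-only bins, an ICM-only share of 3.58%. Coverage there was 3.93% and 5.98% in ICM and 13.4% and 13.3% in TE. Autosome 25 had 31 ICM-only and 504 TE-only bins (5.79%), with coverage of 2.94% and 4.45% in ICM and 11.9% and 11.6% in TE. Autosome 18 had 65 and 699 (8.51%), with coverage of 5.15% and 6.57% in ICM and of 13.0% and 13.1% in TE. On these 3 autosomes both TE lists covered more than both ICM lists, without overlap.

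To compare the autosomes apart from the different total lengths of the lists, the covered length of each autosome was divided by the library's autosomal total and tested with limma on the log2 scale. ICM held a higher share on 12 autosomes (41.4%), which were 1 to 10, 12 and 14, and TE on 16 (55.2%), which were 11, 13, 15 to 23 and 25 to 29, at an adjusted p under 0.05. Autosome 24 was not called (log2 difference -0.21, limma adjusted p = 0.082). The log2 difference was 0.72 ± 0.021 (SE) on autosome 1 (limma adjusted p = 0.000168), 0.77 on autosome 6 (limma adjusted p = 0.000361) and 0.71 on autosome 10 (limma adjusted p = 0.000168). It was -0.995 on autosome 19 (limma adjusted p = 0.00106), -1.23 on autosome 25 (limma adjusted p = 0.000759) and -0.70 on autosome 18 (limma adjusted p = 0.000184). Shares of 1 total depend on each other, so these calls state a relative balance. Without division by the total, limma called 0 autosomes higher in ICM (0 also at an unadjusted p under 0.05) and 17 higher in TE, and the median over the autosomes moved from -0.14 to -0.61. Of the 12 autosomes, 3, 5, 12 and 14 then turned to negative differences that were not called. Autosomes 1, 6 and 10 then had log2 differences of 0.25, 0.30 and 0.24 (limma adjusted p = 0.366, 0.254 and 0.376). Trimming by score turned autosome 27 from -0.19 to 0.11 (limma adjusted p = 0.0277), and trimming by score per base turned autosomes 5 and 15 with no call.

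**Figure D3:**
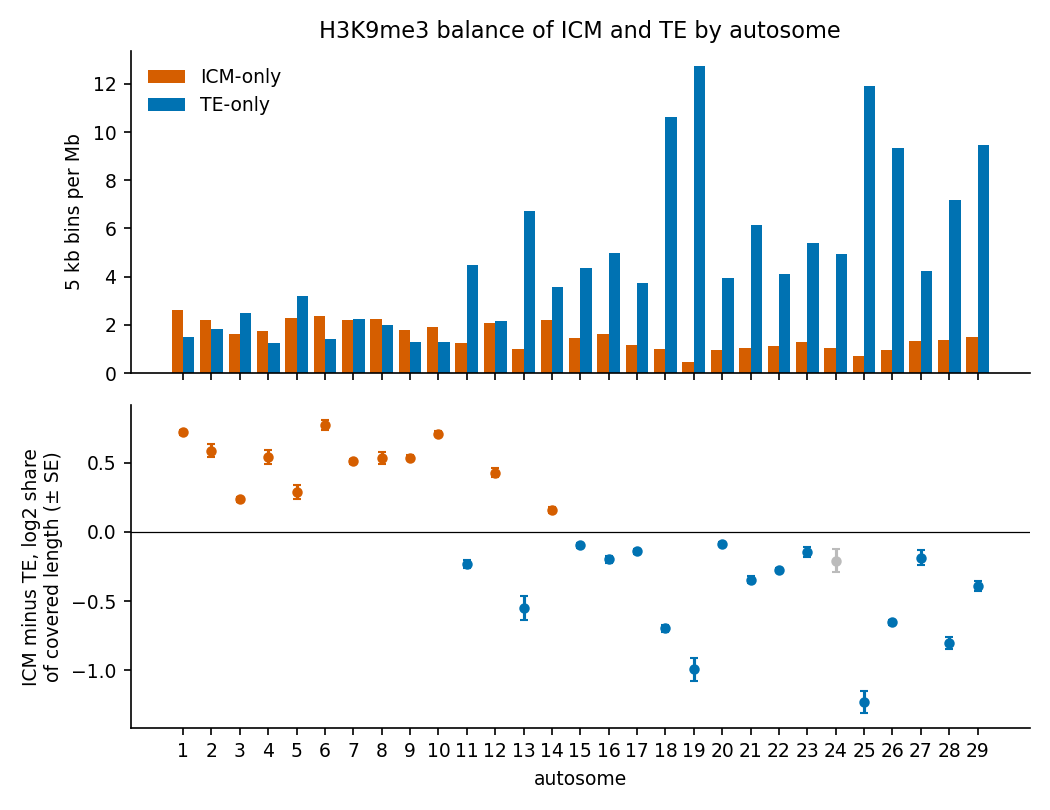
Upper panel, ICM-only and TE-only 5 kb bins per Mb on each autosome. Lower panel, ICM minus TE difference in the log2 share of covered length with its standard error (2 libraries per lineage), orange where ICM and blue where TE held more at a limma adjusted p under 0.05, grey where not called. Autosomes 19 and 25 have the most TE-only bins per Mb and the lowest differences (-0.995 and -1.23).

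Over the 29 autosomes, the ICM-only share rose with autosome length (Pearson r = 0.839, Spearman rho = 0.808). ICM-only density, between 0.473 and 2.64 bins per Mb, rose with length (r = 0.776, rho = 0.729), and TE-only density, between 1.23 and 12.7 bins per Mb, fell with it (r = -0.719, rho = -0.781). Shared density varied less with length (r = -0.364, rho = -0.307). TE-only density also went with the percent of the autosome under H3K27me3 in TE (r = 0.954, rho = 0.966), and ICM-only density ran opposite to it (r = -0.818, rho = -0.800). The points share their libraries, and base composition, gene density and recombination, which vary with chromosome size, were not analysed here. Without 5 Mb at both ends, an alternative chosen after seeing the data, the ICM-only share was 37.8%. Its correlation with length was then r = 0.751 and rho = 0.7. TE-only bins still made up 4.90% of bins between 5 and 6 Mb from the distal end, against 0.65% beyond 20 Mb from both ends. The cut therefore cannot separate length from distal position, and the part of each was not tested. With lists trimmed to equal length by score, rho was 0.758.

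Windows of 1 Mb divide the same 4 lists more finely, so they describe where the balance lies and are no independent support for it. Of 2502 windows, 986 passed the filter of a mean of 20 kb covered over the 4 lists, and 158 had no covered base in any of them. A window can pass through the coverage of 1 lineage alone, so the called shares hold only for the windows that passed. On the scale log2 of (covered kb + 10) per library total, limma called 282 windows higher in ICM (28.6%) and 305 higher in TE (30.9%). Without division by the total the split was 197 against 370, with a median over all windows of -0.50 in place of -0.03. Autosomes 1 to 10 had 174 windows higher in ICM and 57 higher in TE of 375 tested, whereas autosomes 15 to 29 had 64 and 191 of 441. Every one of the 29 autosomes had called windows in both directions. The number of windows higher in TE fell to 182 without TE replicate 1 and to 184 without TE replicate 2, and was 293 and 320 without ICM replicates 1 and 2. The cause was not tested.

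The median log2 difference was 1.88 over the windows called higher in ICM and -1.30 over those called higher in TE. The windows named next are the 3 most extreme in each direction. They were picked by the values given for them, and in each the coverage of 1 lineage alone was enough to pass the filter. In chr2:83000001-84000000, H3K9me3 covered 80.4 and 106.8 kb in ICM and 0 kb in both TE libraries (log2 difference 3.83 ± 0.156 SE, limma adjusted p = 0.000279). H3K27me3 covered 0 kb of this window in ICM and TE. The window chr10:90000001-91000000 had 90.6 and 135 kb of H3K9me3 in ICM against 0 and 4 kb in TE (log2 difference 3.82, limma adjusted p = 0.000279). The window chr3:54000001-55000000 had 83.4 and 94.6 kb against 0 kb in both TE libraries (log2 difference 3.77, limma adjusted p = 0.000279). All 3 windows were already marked in the morula, with between 41.2 and 101.8 kb covered in each MO library. In these windows the ICM libraries lay far above the TE libraries, which were at or near 0. Where a library is at or near 0 the log2 value is set largely by the pseudocount. With 50 kb in place of 10 kb the differences were 1.99, 2.10 and 1.94 for these 3 windows, and -2.19 on chromosome 11, -1.77 on chromosome 2 from 131000001 and -1.59 on chromosome 29 for the 3 windows at the other extreme.

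The window with the lowest value, chr11:1000001-2000000, had 0 and 9.8 kb of H3K9me3 in ICM and 281.6 and 312.2 kb in TE (log2 difference -3.98, limma adjusted p = 0.000299). H3K27me3 covered 266.2 and 259.4 kb of it in ICM and 489.8 and 519.6 kb in TE, so both repressive marks were more extended in TE. The window chr2:131000001-132000000 had 0 and 8 kb of H3K9me3 in ICM and 200.2 and 209.6 kb in TE (log2 difference -3.53, limma adjusted p = 0.00029). H3K27ac there covered 137.9 and 127.5 kb in ICM and 39.8 and 42.6 kb in TE. The window chr29:28000001-29000000 had no H3K9me3 in ICM, 149.2 and 167.6 kb in TE (log2 difference -3.60, limma adjusted p = 0.000279), and H3K27ac over 90.6 and 91.7 kb in ICM and 22.3 and 19.9 kb in TE. H3K27ac was higher in ICM in all 6 named windows, including those with more H3K9me3 in ICM. In chr2:83000001-84000000 it covered 15.4 and 13.4 kb in ICM and 5.6 and 4.65 kb in TE. H3K27ac also covered more of all autosomal bins in ICM (3.81%) than in TE (2.37%), so this direction was not particular to these windows.

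Averaged over the called windows, those higher in TE lay in regions rich in H3K27me3 in both lineages. They had 249 and 259 kb of H3K27me3 per window in ICM and 309 and 318 kb in TE, against 206 and 210 kb in ICM and 222 and 230 kb in TE over all tested windows. Windows higher in ICM had 75.7 and 72.8 kb in ICM and 59.9 and 64.2 kb in TE, below the mean of all tested windows. In both sets of windows the lineage with relatively more H3K9me3 also had the higher H3K27me3 in both of its libraries, without overlap. Over all tested windows H3K27me3 was higher in TE as well, so that direction was not particular to the windows higher in TE.

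H3K27me3 separated the 2 classes of lineage bins. A bin counted as marked by H3K27me3 when at least 50% of it was covered. TE-only bins were marked in 70.8% and 71.7% of cases in the ICM libraries and in 81.7% and 83.0% in the TE libraries. ICM-only bins were marked in 16.8% and 16.9% in ICM and in 8.99% and 9.53% in TE. Over all autosomal bins the share was 10.1% in ICM and 11.3% in TE, so TE-only bins lay far above this level in both lineages, and ICM-only bins lay above it in ICM. In TE, the position of ICM-only bins against all bins depended on how the class was drawn. It rose to 13.5% and 14.5% with bins covered to at least 75%, to 17.2% and 18.2% with lists trimmed by score, to 15% and 15.8% with lists trimmed by score per base, and to 12.5% and 13.4% without TE replicate 1. Shared bins were marked in between 81.9% and 83.4% in all 4 libraries.

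By pattern, 63.7% of TE-only bins carried H3K27me3 in all 4 ICM and TE libraries, 9.43% in both TE libraries and no ICM library, and 11.6% in none. Bins with H3K27me3 in TE only make up 1.94% of all autosomal bins. Of ICM-only bins, 81.2% carried it in no ICM or TE library, 7.70% in all 4, 6.70% in both ICM libraries and no TE library, and 0.428% in both TE libraries and no ICM library. The pattern with H3K27me3 in ICM only makes up 1.16% of all bins. Over all autosomal bins, 85.2% carried H3K27me3 in no ICM or TE library and 7.06% in all 4. ICM-only bins were near the background shares of these last 2 patterns, and TE-only bins were far from them. For H3K27me3 in 1 lineage only, ICM-only bins lay above the background for ICM (6.70% against 1.16%). They lay below it for TE (0.428% against 1.94%).

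A measure of preference for one class was the log2 ratio of the share of ICM-only bases to the share of TE-only bases covered by a library. For H3K27me3 it was -2.02 and -2.07 in ICM and -3.13 and -3.05 in TE, which did not overlap. The means were -2.04 ± 0.030 (SD, n = 2) and -3.09 ± 0.053 (SD, n = 2), with a difference of 1.05. The exact permutation test (two-sided) gave p = 0.333, the smallest possible for 2 against 2. The whole blastocyst lay between the lineages, at -2.57 and -2.59.

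The 3 classes had different histories of H3K9me3. A share of 4.05% to 7.75% of all autosomal bins was marked in each of these stage libraries, and the classes are read against it. Shared bins were marked more often at later stages, with overlap only between 4C and 8C, from 15.4% and 16.2% of bins marked in GV to 26.3% and 26.6% at 2C, 40.4% and 40.8% at 4C, 43.6% and 40.8% at 8C, 62.7% and 73.1% in MO and 89.7% and 96.3% in BL. ICM-only bins were low up to 8C and high in the morula. They were marked in 8.44% and 7.80% of cases in GV, 4.18% and 4.04% at 2C, 5.97% and 5.92% at 4C, 6.61% and 5.4% at 8C, 56.8% and 66.0% in MO, and 28.8% and 42.2% in BL. No MO or BL library overlapped an earlier one.

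TE-only bins took the reverse course between 8C and MO. They were marked in 20.8% and 20.9% of cases in GV, 21.3% and 21.6% at 2C, 30.2% and 30.5% at 4C, 30.7% and 30.2% at 8C, 12.6% and 19.5% in MO, and 33.2% and 53.4% in BL. Both MO libraries lay below every other stage, and both BL libraries lay above every other stage. Differences among the 6 stages were tested by comparing the true pairing of the 12 libraries with all 10395 ways to form 6 pairs. The exact test gave p = 0.000192 for shared, 0.000289 for ICM-only and 0.000289 for TE-only bins (0.000385 for each after adjustment over 8 tests of both marks). It tests whether stages differ at all. Pairs of stages were not tested singly, since an exact permutation test of 2 libraries against 2 cannot go below p = 0.333. For TE-only bins the exact p rose to 0.0511 without 4C replicate 1, 0.0514 without 4C replicate 2, 0.0517 without 8C replicate 1, 0.051 without 8C replicate 2 and 0.0797 without MO replicate 1.

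**Figure D4:**
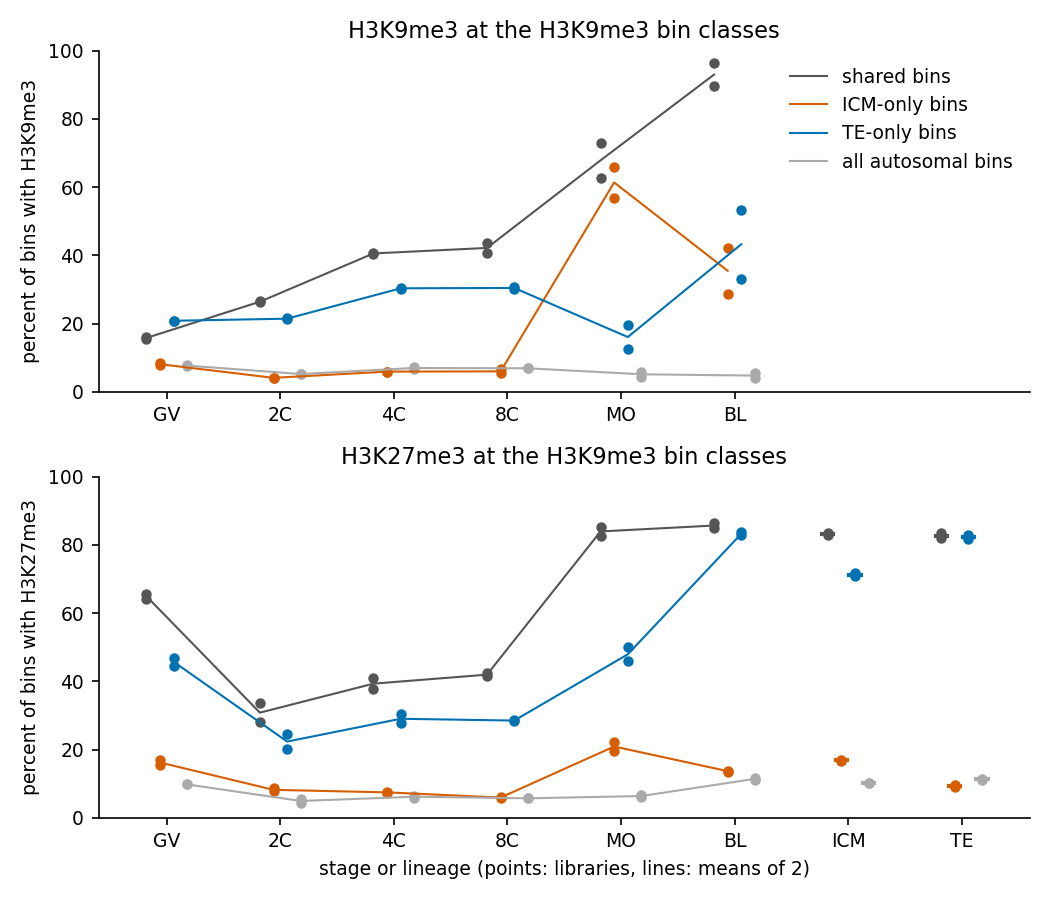
Percent of bins in each class with H3K9me3 (upper panel) and H3K27me3 (lower panel) by stage or lineage. Points are libraries, lines and short bars are means of 2 libraries, and grey is all autosomal bins. ICM-only bins rise from about 6% at 8C to 56.8% and 66.0% in MO for H3K9me3, and TE-only bins rise to above 80% in BL for H3K27me3.

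The log2 ratio of ICM-only to TE-only coverage by H3K9me3 puts both courses into 1 number. It was -1.28 and -1.45 in GV, between -2.45 and -2.19 from 2C to 8C, 2.10 and 1.68 in MO, and -0.09 and -0.25 in BL. Only the morula libraries favoured ICM-only bins, and the blastocyst libraries, which hold both lineages, were near balance. The exact test over pairings gave p = 0.00125 (adjusted p = 0.00125, 12 libraries).

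Bins marked in both libraries of a stage gave the same picture. At 8C these were 37.5% of shared, 4.04% of ICM-only and 26.3% of TE-only bins, against 5.64% of all autosomal bins. In MO they were 60.4%, 53.0% and 11.1%, against 3.97%. In BL they were 88.1%, 22.3% and 27.2%, against 3.54%. ICM-only bins were thus far above the level of all bins in MO. At 8C their position against all bins depended on how the class was drawn. The share marked in each 8C library, 6.61% and 5.4% against 6.95% and 6.88% of all bins, became 9.17% and 8.09% with bins covered to at least 75%, 10.6% and 9.62% with lists trimmed by score, and 8.95% and 8.02% with lists trimmed by score per base. In neither BL library were 51.4% of ICM-only and 40.7% of TE-only bins marked, compared with 2.03% of shared bins.

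Combined histories of single bins were read against all autosomal bins, most of which were unmarked throughout. Of ICM-only bins, 892 (21.2%) were unmarked in both 8C lists, marked in both MO lists and unmarked in both BL lists, a history of 1.47% of all bins. A further 579 (13.8%) were unmarked at 8C and marked in both MO and both BL lists, against 0.713% of all bins. ICM-only bins unmarked in every 8C and MO list numbered 1189 (28.3%), of which 772 (18.4% of the class) were also unmarked in both BL lists. Among TE-only bins these were 5826 (59.0%) and 2956 (30.0%), and among all bins 87.5% and 85.3%. Another 1074 TE-only bins (10.9%) were unmarked at 8C and MO and marked in both BL lists, against 0.942% of all bins. Bins with no H3K9me3 in any list from GV to BL numbered 719 among ICM-only (17.1%), 2674 among TE-only (27.1%) and 97 among shared bins, against 80.8% of all bins. All 3 classes were thus marked in some stage list more often than bins in general, and TE-only bins least often of the 3. Seen from the morula, which marked 19767 bins in both lists, 32.1% were shared later, 11.3% ICM-only and 5.55% TE-only. A further 30.3% were in none of the 4 ICM and TE lists. Of all autosomal bins, 2.11% were shared, 0.845% ICM-only and 1.98% TE-only, so each class was more frequent among the morula bins.

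H3K27me3 at the same bins was read against 4.49% to 11.6% of all autosomal bins marked in each stage library. At 8C its class shares were close to those of H3K9me3, with 41.6% and 42.4% against 43.6% and 40.8% of shared bins. For TE-only bins at 8C they were 28.4% and 28.6% against 30.7% and 30.2%. In GV, MO and BL the TE-only and ICM-only shares of the 2 marks lay further apart. TE-only bins carried H3K27me3 in 46.9% and 44.6% of cases in GV, 20.3% and 24.4% at 2C, 30.4% and 27.7% at 4C, 28.4% and 28.6% at 8C, 50.0% and 45.9% in MO, and 83.8% and 82.8% in BL. ICM-only bins carried it in 15.6% and 16.8% in GV, between 5.85% and 8.63% from 2C to 8C, 22.3% and 19.6% in MO, and 13.8% and 13.5% in BL. In the morula, TE-only bins therefore held H3K27me3 more often than H3K9me3, and the reverse held for ICM-only bins. Shared bins held H3K27me3 in 65.7% and 64.2% of cases in GV and in 86.4% and 85% in BL. The exact test over pairings gave p = 0.000192 for shared, 9.62e-05 for ICM-only (the smallest that 10395 pairings allow) and 0.000577 for TE-only bins, with adjusted p of 0.000385, 0.000385 and 0.00066.

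Within a class, bins with and without H3K27me3 in TE differed in their H3K9me3 history. TE-only bins without H3K27me3 in either TE library (1402) had H3K9me3 at 8C in 49.4% and 48.6% of cases, and those with it in both (7783) in 26.7% and 26.0%. In BL the corresponding values were 34.0% and 53.0% without and 33.4% and 54.1% with H3K27me3, which overlapped. ICM-only bins without H3K27me3 in TE (3776) had H3K9me3 in MO in 61.0% and 69.8%, and the 349 bins with it in both TE libraries in 19.5% and 33.0%. Bins are not replicates, and these splits are descriptions with 2 libraries at each stage.

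Active marks and open chromatin were sparser in TE-only than in ICM-only bins in every ICM and TE library. H3K27ac covered 4.57% and 4.03% of ICM-only bases in ICM and 2.58% and 2.49% in TE. It covered 1.02% and 0.81% of TE-only bases in ICM and 0.22% and 0.21% in TE. Over all bins it covered 3.81% in ICM and 2.37% in TE, so ICM-only bins were near the level of all bins in both lineages while TE-only bins were below it, and lower in TE than in ICM.

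H3K4me3, the mark of active promoters, covered 1.03% and 1.05% of ICM-only bases in ICM and 1.74% and 1.49% in TE, against 1.53% and 1.84% over all bins. It covered 0.53% and 0.56% of TE-only bases in ICM and 0.67% and 0.57% in TE. ATAC-seq peaks covered 5.67%, 6.67% and 5.51% of ICM-only bases in the 3 ICM libraries and 4.26%, 5.01% and 4.33% in the 3 TE libraries, against 3.47% and 3.53% over all bins. On TE-only bases they covered 2.66%, 3.12% and 2.54% in ICM and 1.82%, 2.28% and 1.68% in TE. Bases of ICM-only bins were therefore more often open than the average base in both lineages. The ICM H3K9me3 lists covered on average 86.0% of such a bin, and whether the open bases lay under H3K9me3 peaks was not counted.

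**Figure D5:**
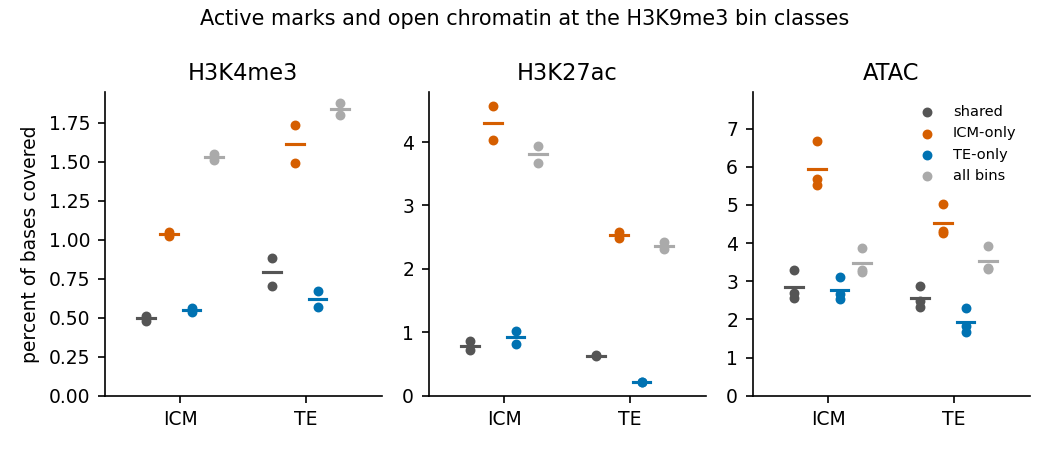
Percent of bases covered by H3K4me3, H3K27ac and ATAC-seq peaks in each class of H3K9me3 bins (vertical axis, a separate scale for each assay) in ICM and TE. Points are libraries and bars their means. TE-only bins lie below all bins in every panel, and ATAC-seq peaks cover more of the ICM-only bins than of all bins in both lineages.

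The log2 ratio of ICM-only to TE-only coverage was lower in ICM than in TE for all 3 assays. It was 0.94 and 0.90 in ICM and 1.38 and 1.40 in TE for H3K4me3, a difference of means of -0.47. For H3K27ac it was 2.16 and 2.31 in ICM and 3.55 and 3.55 in TE, a difference of -1.32. For ATAC-seq it was 1.09, 1.10 and 1.12 in ICM and 1.23, 1.13 and 1.36 in TE, a difference of -0.14, with the lowest TE library close to the highest ICM library. The lineages did not overlap in any of the 3. Set against all bins, the ratio moved through different classes in each assay. TE-only bins had 0.782 to 0.808 times the ATAC-seq coverage of all bins in ICM and 0.504 to 0.583 times in TE, and 0.222 and 0.26 against 0.0877 and 0.0956 times for H3K27ac. ICM-only bins had more ATAC-seq coverage relative to all bins in ICM (1.69 to 1.72 times) than in TE (1.27 to 1.3 times), with overlap for H3K27ac (1.1 and 1.16 against 1.03 and 1.12 times). Only for H3K4me3 did ICM-only bins have less relative coverage in ICM, at 0.676 and 0.678 times, than in TE, at 0.826 and 0.926 times. Summed over the assays the difference was -1.93, and the exact permutation test of labels within each assay (two-sided, 720 arrangements) gave p = 0.00278, the smallest it can give. With classes drawn without TE replicate 2, the summed difference was -1.50 and the same exact permutation test gave p = 0.0111. Singly, in the main classes, the exact p was 0.333 for each histone mark and 0.1 for ATAC-seq. These are the smallest that 2 against 2 and 3 against 3 libraries allow.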

How the data were processed

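Peak lists of 46 libraries were used and 35 were not (other stages of the active marks and the inhibitor-treated embryos). The sources are the labels and the lists. Per the submitters' processing notes, the build was ARS-UCD1.2, and the tools named were SICER, SAMtools 1.9, Picard 2.26.10, BWA 0.7.9a, cutadapt 1.8.3 and Trim Galore 0.4.0. The lists are one per library, and the sources used here do not give the parameters of peak calling. Each peak carries a whole-number score deposited by the authors, whose meaning is not stated. It was used only to describe and trim lists. Depth per library is unknown, so no interval was computed from reads. The H3K9me3 lists of ICM and TE lie on a grid of 200 bp with gaps of at least 1200 bp between peaks, and 17.7% of their peaks lie outside the assembled chromosomes.

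Everything else was computed here with Python 3.11.15, NumPy 2.4.6, pandas 2.3.3 and SciPy 1.17.1, and with limma 3.58.1 in R 4.3.3. Autosome lengths are the highest peak ends in the lists used. limma with empirical Bayes moderation was fitted to the log2 share of covered length over 29 autosomes and over 1 Mb windows (pseudocount 10 kb), with Benjamini-Hochberg adjustment over all of them and a threshold of 0.05. Single values were compared by exact permutation tests. The script was tested on simulated data. The 3 autosomes named at each end are those with the highest and lowest ICM-only share, and the windows and stretches named are among the 3 largest in each direction. The members, bin classes and tests were chosen with earlier results of these data known. Alternatives covered bin size, coverage threshold, list length, window size, pseudocount, filter, scaling, the replicate block and each replicate left out. No sequence or gene name is given, since no genome or annotation of the files' build was used here.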

Additional observations from a re-analysis of the deposited data

How the results depend on the processing

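Counts of bins follow the bin size. Bins of 2 kb gave 25312 shared, 10733 ICM-only and 23662 TE-only bins, and bins of 10 kb gave 5320, 1948 and 4965. Lists trimmed to the covered length of the shortest list by score gave 5300 ICM-only bins, 4793 TE-only bins and an ICM-only share of 52.5%. By score per base these were 5086, 5261 and 49.2%. Leaving out each replicate in turn gave 11069 to 14479 shared, 4781 to 8871 ICM-only and 11169 to 14672 TE-only bins, with an ICM-only share of 25.1% to 44.3%. The comparison of domain length changed sign. The log2 difference of median width ranged from -0.25 to 0.40 (-0.25 without ICM replicate 1, 0 without TE replicate 2) and was -0.0523 after joining peaks up to 3 kb apart. The difference in the percent of length in peaks of at least 5 kb was -0.956 percentage points and ranged from -5.93 to 4.02 (4.02 without ICM replicate 2, 0.139 without TE replicate 1). The log2 difference in covered length ranged from -0.67 to -0.27.

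Without division by the library total, 0 autosomes were higher in ICM, and the log2 differences of autosomes 1, 6 and 10 had limma adjusted p of 0.366, 0.254 and 0.376. Leaving out each replicate gave 10 to 12 autosomes higher in ICM and 11 to 17 in TE. Windows higher in ICM numbered 236 to 269 and in TE 182 to 320 (182 without TE replicate 1, 184 without TE replicate 2). With no filter on low windows 1369 were higher in ICM and 342 in TE. By construction, a window with no peak gets a positive difference there, since the pseudocount is divided by a shorter total in ICM. The main setting divides its pseudocount in the same way, so windows with little coverage are shifted towards ICM there too. A pseudocount of 50 kb gave 366 and 261, and the median log2 difference over all windows moved from -0.03 to 0.12. Windows of 500 kb gave 273 and 436. With the replicate number as a block, limma called 297 and 315 windows and 12 and 16 autosomes. The labels do not say whether libraries with the same replicate number belong together. The correlation of the replicate differences of ICM and TE over windows was 0.063, which cannot decide it.

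The alternatives without division by the total, without a stage or active-mark library, with classes lacking 1 defining library and without the ends of the autosomes were chosen after seeing the data. Over stages, the exact p for TE-only bins with H3K9me3 ranged from 0.000289 to 0.0797 when 1 library was left out (0.0511 without 4C replicate 1, 0.0514 without 4C replicate 2, 0.0517 without 8C replicate 1, 0.051 without 8C replicate 2, 0.0797 without MO replicate 1). For the other 7 stage tests it reached at most 0.0025. The summed difference for the active marks and ATAC-seq ranged from -2.0 to -1.5, and the difference for H3K27me3 from 0.872 to 1.08. The main limits are 2 libraries per group, the unknown depth, a shorter list for ICM replicate 1, and the physical separation of the fractions by different procedures.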
